A study of Mus musculus with 12 samples.

Results

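The 6 actin isoform genes of the mouse, Acta1, Actc1, Acta2, Actg2, Actb and Actg1, were followed in the hearts of 2 mouse models that lack normal LEMD2, a LEM-domain protein of the inner nuclear membrane. They were found by gene symbol in the table of raw read counts, which held all 6 of them among 24062 genes, and all 6 passed the filter on low counts in both comparisons. RNA-seq of polyadenylated RNA was performed on whole hearts of 12 mice, 3 in each of 4 groups. The adult WT group (hearts 1 to 3) and the adult KI/KI group (hearts 4 to 6) were 2 months old, and the KI/KI mice carried the Lemd2 c.T38>G knock-in on both alleles in every cell. The P1 floxed group (hearts 1 to 3) carried loxP sites around exon 1 of Lemd2 and no Cre, and the P1 cKO group (hearts 4 to 6) carried in addition Cre under the cardiomyocyte promoter of Myh6. Both P1 groups were taken on postnatal day 1. In the cKO hearts the other cell types of the heart kept Lemd2, so that whole-heart RNA mixed deleted and undeleted cells. The 2 models differ in age, allele and line, and each was compared with its own controls.

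Actins polymerise into the filaments on which myosins pull. In striated muscle they build the thin filaments of the sarcomere from cardiac α-actin (Actc1) and skeletal α-actin (Acta1), and the adult mouse heart uses mainly the cardiac form. Skeletal α-actin is a well-known member of the fetal gene program that hearts under load turn on again. Vascular and enteric smooth muscle use Acta2 and Actg2, myofibroblasts and the early embryonic heart also express Acta2, and Actb and Actg1 encode the cytoplasmic β- and γ-actins found in every cell. Many actin genes are controlled by serum response factor (SRF), which binds a short element called the CArG box, a stretch of A and T bases between CC and GG.

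The isoforms are very similar proteins made from separate genes. Translated from the annotated transcripts, the 2 striated actins differed at 4 of 377 residues, the 2 smooth muscle actins at 2, and the 2 cytoplasmic actins at 4 of 375. Between a muscle and a cytoplasmic actin, 20 to 24 residues differed. On the GRCm38 build (GENCODE annotation), all 6 genes lie on the minus strand. Acta1 spans chromosome 8 from 123891769 to 123894751, with 7 exons and a transcript of 1446 bases. Actc1 spans chromosome 2 from 114047282 to 114053548, with 7 exons and 1473 bases. Acta2 spans chromosome 19 from 34241090 to 34255590 and Actg2 spans chromosome 6 from 83512905 to 83536265, each with 9 exons. Actb lies on chromosome 5 from 142903115 to 142906754 and Actg1 on chromosome 11 from 120345690 to 120348542, each with 6 exons.

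How far a read of 75 bases can identify its isoform was computed from the annotated transcripts. Of the 1878 windows of that length in the Actg1 transcript, 1023 (54.5%) also occurred in transcripts of 10 other genes, 9 of them pseudogenes. The share was 2.60% for Actb and 0.437% for Acta1, and no window of Actc1, Acta2 or Actg2 was shared. How reads with several matches were counted is not given in the sources used here, so the level of Actg1, and its rank and share among the isoforms, are uncertain. Actc1 overlaps A530058N18Rik on the opposite strand and Actg1 overlaps Mir6935 on its own strand, and whether strand was used in counting is not given either.

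The promoter sequence of 4 of the 6 genes was available (RefSeq, GRCm38.p6, 250 bases before to 50 after the start site), namely Acta1, Actc1, Acta2 and Actg1. Each of Acta1, Actc1 and Actg1 held 1 exact CArG box upstream of its start site, and these are shown because both striated isoforms and a cytoplasmic one hold the element. They are written 5′ to 3′ on the gene's minus strand, with the box in capitals.
Acta1, chr8:123894814-123894873, box 73 bases before the start site: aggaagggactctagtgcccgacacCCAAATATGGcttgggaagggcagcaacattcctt
Actc1, chr2:114052888-114052947, box 47 bases before the start site: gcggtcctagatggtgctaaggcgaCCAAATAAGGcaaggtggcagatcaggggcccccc
Actg1, chr11:120348551-120348610, box 90 bases before the start site: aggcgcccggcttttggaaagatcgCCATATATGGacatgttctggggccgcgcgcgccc
In the Acta2 window no exact box was found, and sequences 1 mismatch away began 84 and 34 bases before the start site. Counting the exact box, 3 sequences in Acta1, 4 in Actc1 and 1 in Actg1 lay within 1 mismatch. The RefSeq start site used for Actc1, at 114052875, lies inside the gene span given above from GENCODE. Both strands were searched, and 1.63% of 32851 promoters of the same length held an exact box, or 21.1% when 1 mismatch was allowed. A match is a description of the letters and does not show that a factor binds there.

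Before the isoforms were compared, the labels were checked on Lemd2. Its level was 31.9, 34.7 and 33.0 CPM (gene counts scaled to library size) in WT hearts, against 25.6, 25.1 and 24.8 in KI/KI hearts, and at P1 it was 24.4, 25.1 and 25.3 in floxed hearts against 6.64, 13.1 and 11.3 in cKO hearts. The counts cover the whole gene rather than the altered base or exon alone. Lemd2 was lower in every mutant heart of both models than in any of its controls. Libraries held 37063669 to 44789753 counts. Heart 4 of the cKO group stood apart by the X-inactivation transcript Xist at 617 CPM, against at most 2.03 in the other 11 hearts, and by Ddx3y, a Y-linked gene, at 0.0402 against at least 96.4. By both genes that heart read as female and the other 11 as male, so sex was not balanced between the P1 groups. The sample labels used here do not give sex. Without it, Acta1 (log2 fold change 1.98, adjusted p = 0.0131 by edgeR) and Actb (0.79, 0.0194) still passed. Over all genes at P1, edgeR then called 1037 higher and 848 lower. Some other results are given without it below. KI/KI heart 5 had the highest summed level of activated fibroblast genes of the adult hearts, 3398 CPM against 937 to 1588 in the other 5.

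**Figure D1:**
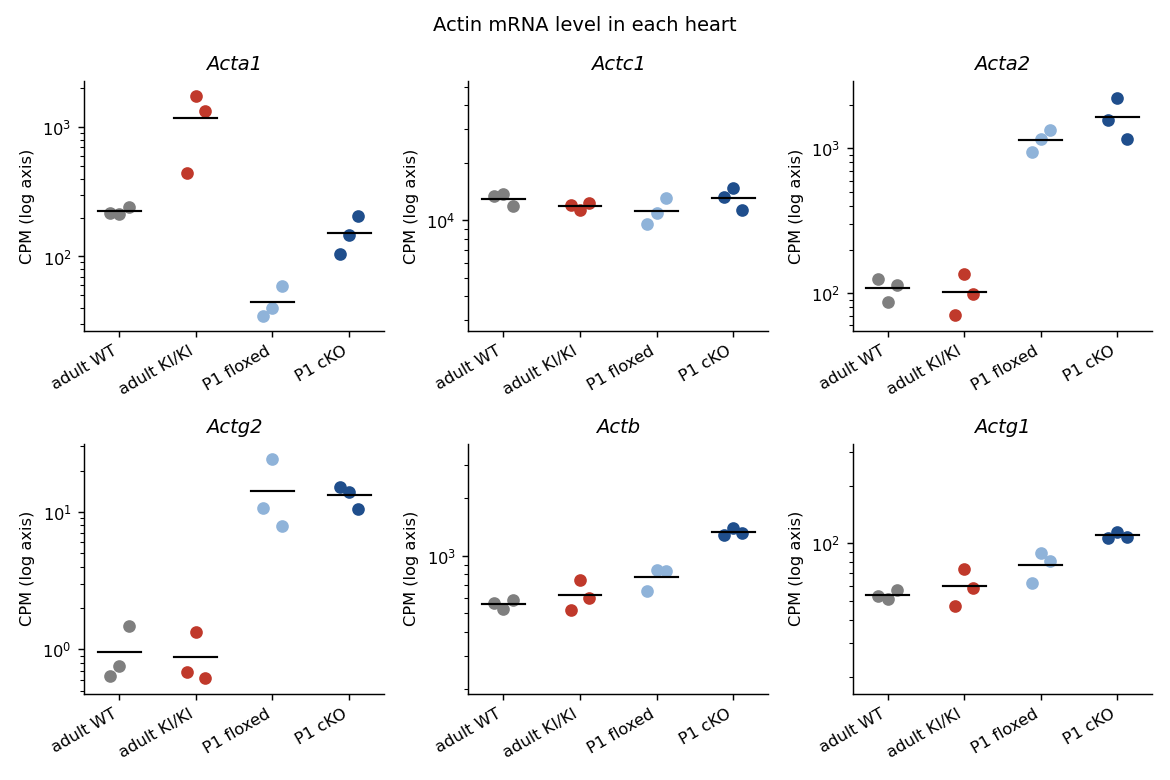
Level of each actin isoform in CPM (log axis) in the 12 hearts, 1 panel per gene, with a point for each heart and a bar for the mean of each group of 3, each panel on its own range. The KI/KI hearts lie above all WT hearts for Acta1 only, from 445 to 1746 CPM against 212 to 242, and the cKO hearts lie above all floxed hearts for Acta1, Actb and Actg1.

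Cardiac α-actin was by far the leading isoform in every group. To compare isoforms with each other, CPM were divided by transcript length in kilobases. On that scale Actc1 averaged 8822 in adult WT hearts, followed by Actb at 292, Acta1 at 154, Acta2 at 53.3, Actg1 at 27.5 and Actg2 at 0.720. No 2 neighbours in this order overlapped between hearts. In P1 floxed hearts the order after Actc1 (7617 CPM per kilobase) was Acta2 at 564, Actb at 405, Actg1 at 39.7, Acta1 at 30.7 and Actg2 at 10.7. The ranges of Actg1 and Acta1 overlapped across hearts, although Actg1 was above Acta1 within each heart (41.3 and 40.8 in heart 3).

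The mutant hearts kept Actc1 first and changed the order below it. In KI/KI hearts Acta1 came second, at 812 CPM per kilobase, ahead of Actb at 324. Acta1 was above Actb within each KI/KI heart, at 308 and 272 in heart 4. The ranges of the 2 genes overlapped only across hearts, since Actb was at 390 in heart 5. Acta2 (50.4) was likewise above Actg1 (30.6) within each KI/KI heart, with ranges that overlapped across hearts. In cKO hearts Acta2 (815) and Actb (694) overlapped, and Acta1 at 105 stood above Actg1 at 56.4 with no overlap. The place of Actg1 turned when the same counts were divided by the number of windows found in no other gene, not by transcript length. On that basis its mean share was above that of Acta1 in cKO hearts (1.16% and 1.03%, with overlap). It was also above that of Acta2 in WT (0.640% and 0.563%) and KI/KI hearts (0.709% and 0.529%). No reads were recounted, and this divisor holds only if reads matching several genes had been left out, which is not known. Between the control groups, CPM of Acta1 were 5.03-fold higher in adult WT than in P1 floxed hearts, whereas Acta2 was 10.6-fold, Actg2 14.8-fold, Actb 1.39-fold and Actg1 1.44-fold higher at P1. Actc1 overlapped between them. Age cannot be told apart from line and allele in that contrast, and it was not tested.

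In adult KI/KI hearts, skeletal α-actin was the isoform that stood out. Its 3 WT hearts had 216, 212 and 242 CPM of Acta1, and the 3 KI/KI hearts had 445, 1746 and 1332 CPM. All 3 mutant hearts lay above all controls, but they were far from each other, at 1.99, 7.82 and 5.96 times the WT mean. The means were 223 ± 16.4 and 1175 ± 665 CPM (SD, n = 3 each), a log2 fold change of 2.40 (SE 0.46). In the main test, edgeR's quasi-likelihood test with Benjamini-Hochberg adjustment over all genes, this difference did not pass, with an adjusted p of 0.193. No gene of the 14592 tested was called higher at an adjusted p of 0.05 in that comparison (0%), where 0.101 was the smallest adjusted p of any gene. Without adjustment, edgeR placed 2363 genes (16.2%) under 0.05, and Acta1 ranked 98th among them. DESeq2 called Acta1, with an adjusted p of 0.000148, as 1 of 306 genes it called higher (2.1%). By log2 fold change Acta1 ranked 22nd of all genes tested, and highest among the 2082 genes with a mean above 100 CPM over both groups. Without KI/KI heart 4, the lowest of the mutants, the log2 fold change was 2.79 and the adjusted p of edgeR 0.0144. Without any other single heart it ran from 2.00 (without KI/KI heart 5) to 2.47, with adjusted p of 0.208 to 0.518 by edgeR.

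The other striated isoform did not go with it. Actc1 measured 13355, 13719 and 11909 CPM in WT hearts against 12068, 11270 and 12368 CPM in KI/KI hearts, and the groups overlapped. Its log2 fold change was -0.12 (SE 0.12), with an adjusted p of 0.629 by edgeR.

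The smooth muscle isoforms overlapped between the adult groups. Acta2 was at 125, 86.5 and 113 CPM in WT hearts and at 71.4, 137 and 99.3 CPM in KI/KI hearts, a log2 fold change of -0.07 (SE 0.25). Actg2, the enteric isoform, was close to the detection limit in adults, at 0.642, 0.763 and 1.47 CPM in WT and 0.684, 1.33 and 0.617 CPM in KI/KI hearts. The adjusted p by edgeR was 0.902 for Acta2 and 0.909 for Actg2, and the sign of both differences turned when single hearts were left out.

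The cytoplasmic isoforms overlapped as well. Actb was at 567, 526 and 588 CPM in WT and at 522, 748 and 598 CPM in KI/KI hearts, a log2 fold change of 0.16 (SE 0.14). Actg1 was at 53.0, 51.4 and 56.9 CPM in WT and at 47.2, 73.8 and 58.5 CPM in KI/KI hearts, a log2 fold change of 0.16 (SE 0.16). In both genes heart 5 was the highest and heart 4 the lowest of the mutants, and the adjusted p by edgeR was 0.578 and 0.619. In all, 0 of the 6 isoforms passed edgeR's test in adult hearts, 1 passed an unadjusted p under 0.05, 1 passed in DESeq2, and 1 did not overlap between groups. Over all genes tested, 22% did not overlap.

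In P1 cKO hearts, 3 of the 6 isoforms were higher: skeletal α-actin and both cytoplasmic actins. Over all genes, 1427 of 15317 were called higher (9.32%) and 1160 lower (7.57%) at an adjusted p of 0.05, and 437 were called higher and by more than 2-fold (2.85%). With upper-quartile in place of TMM scaling, the split was 1193 higher and 1465 lower. The hearts of the 2 groups did not overlap in 3 of the 6 isoforms and in 39.3% of all genes tested.

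Acta1 measured 34.5, 39.7 and 58.9 CPM in floxed hearts against 104, 145 and 207 CPM in cKO hearts. The cKO hearts lay at 2.35, 3.28 and 4.66 times the floxed mean, with no overlap. The means were 44.4 ± 12.9 and 152 ± 51.7 CPM (SD, n = 3 each). The log2 fold change was 1.77 (SE 0.28), with an adjusted p of 0.0114 by edgeR and 8.62e-09 by DESeq2, and it was the 1 isoform that changed by more than 2-fold. Without floxed heart 1 or floxed heart 2 the adjusted p by edgeR was 0.0702 or 0.0576, at log2 fold changes of 1.61 and 1.69.

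Actc1, which supplied most of the actin RNA, measured 9600, 10918 and 13142 CPM in floxed hearts against 13286, 14693 and 11307 CPM in cKO hearts. The groups overlapped, and the log2 fold change was 0.22 (SE 0.16), with an adjusted p of 0.349 by edgeR.

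Acta2 measured 946, 1159 and 1336 CPM in floxed hearts against 1575, 2241 and 1158 CPM in cKO hearts. Hearts 4 and 5 of the cKO group lay above all floxed hearts and heart 6 among them. The log2 fold change was 0.53 (SE 0.25) and the adjusted p by edgeR 0.172, and without cKO heart 6 they were 0.73 and 0.0371. Actg2 measured 10.6, 24.2 and 7.85 CPM in floxed hearts against 15.2, 14.0 and 10.6 CPM in cKO hearts, with the whole cKO range inside the floxed range. Its log2 fold change was -0.09 (SE 0.40), with an adjusted p of 0.887 by edgeR, and it was 0.52 without floxed heart 2.

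Cytoplasmic β-actin rose in all 3 hearts. Actb measured 654, 844 and 836 CPM in floxed hearts against 1283, 1403 and 1313 CPM in cKO hearts, and the lowest cKO heart lay well above the highest floxed heart. The means were 778 ± 108 and 1333 ± 62.8 CPM (SD, n = 3 each), a log2 fold change of 0.78 (SE 0.12) with an adjusted p of 0.00968 by edgeR. Without floxed heart 1 the adjusted p was 0.0512.

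Actg1 measured 62.3, 89.5 and 80.6 CPM in floxed hearts against 107, 115 and 108 CPM in cKO hearts, again with no overlap. Its log2 fold change was 0.51 (SE 0.13), with an adjusted p of 0.0410 by edgeR and 0.0075 by DESeq2. This call was the least firm of the 3. It was lost by edgeR when any 1 heart other than cKO heart 6 was left out (cKO 4 0.0673, cKO 5 0.133, floxed 1 0.110, floxed 2 0.0574 and floxed 3 0.0773 as adjusted p), and Actg1 is also the isoform that shares most of its windows with pseudogenes.

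**Figure D2:**
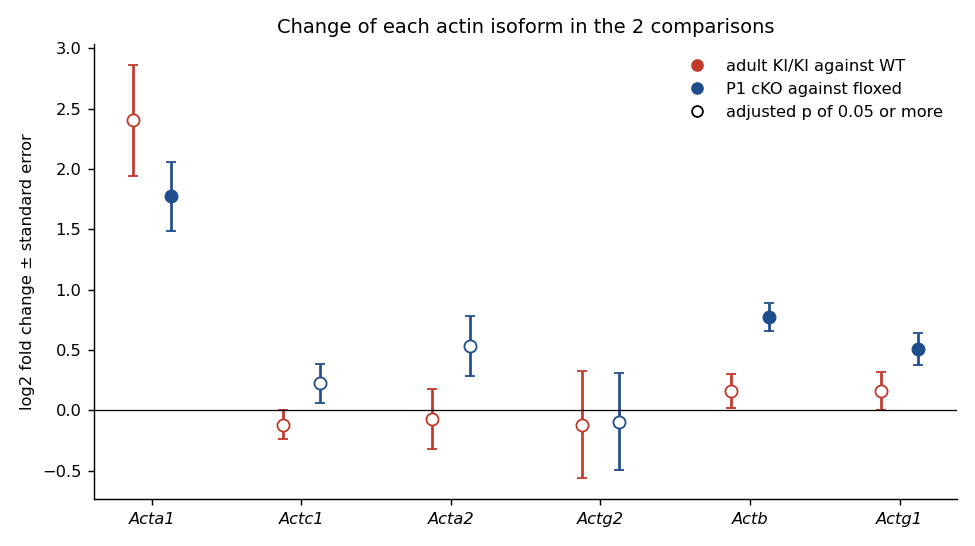
Log2 fold change of each isoform, mutant over control, with bars of 1 SE from edgeR, for adult KI/KI against WT and P1 cKO against floxed hearts (n = 3 each). Acta1 lies at 2.40 in adult and 1.77 in P1 hearts, Actb at 0.16 and 0.78, and the line at 0 marks no difference.

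Whether the 2 models differed was tested as an interaction of genotype and age over all 12 hearts. The difference, P1 minus adult, was -0.62 on the log2 scale for Acta1 (adjusted p = 0.591), 0.35 for Actc1 (0.373), 0.61 for Acta2 (0.402), 0.03 for Actg2 (0.991), 0.62 for Actb (0.106) and 0.35 for Actg1 (0.401), all by edgeR. None of the 6 passed, against 383 of 15729 genes (2.43%) that did. DESeq2 called Actb, with an adjusted p of 0.0192, and edgeR called it without KI/KI heart 5 (0.0438). The passing of Actb and Actg1 at P1 and not in adults is therefore not shown to be a difference between the models by the main test.

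The mix of isoforms was described as the share of each isoform in the summed actin CPM per kilobase of a heart. With 3 hearts against 3, the exact permutation test (two-sided) cannot go below p = 0.1, so that no share difference could pass 0.05. In adults the share of Acta1 was 1.55%, 1.498% and 1.94% in WT hearts and 3.49%, 12.9% and 9.49% in KI/KI hearts, higher in all 3 mutants (exact permutation p = 0.1). The share of Actc1 went from 94.4%, 95.0% and 93.5% to 92.8%, 81.8% and 86.5%, lower in all 3 (exact permutation p = 0.1). The mean difference was 6.97 percentage points for Acta1 and -7.31 for Actc1. Without KI/KI heart 5 these were 4.83 and -4.70 points, and without KI/KI heart 4 they were 9.54 and -10.2 points. The summed share of both striated actins was 96.0% ± 0.517 (SD, n = 3) in WT against 95.6% ± 0.826 (SD, n = 3) in KI/KI hearts, with overlap.

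At P1 the share of Acta1 was 0.323%, 0.322% and 0.403% in floxed and 0.679%, 0.840% and 1.57% in cKO hearts, and the share of Actb was 4.70% ± 0.433 and 6.63% ± 0.745 (SD, n = 3 each), both without overlap (exact permutation p = 0.1 each). Actc1 was at 88.2%, 87.1% and 88.3% in floxed and at 85.1%, 83.3% and 84.0% in cKO hearts. Its share was thus lower in every cKO heart although its CPM overlapped. The summed striated share was 88.2% ± 0.726 against 85.2% ± 0.906, and the cytoplasmic share 5.16% ± 0.501 against 7.17% ± 0.806. The smooth muscle share overlapped, at 6.40% to 6.90% in floxed and 6.32% to 9.28% in cKO hearts. With the same counts divided by the number of windows found in no other gene, the share of Actg1 was 0.640% in WT and 0.992% in floxed hearts in place of 0.296% and 0.460%.

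**Figure D3:**
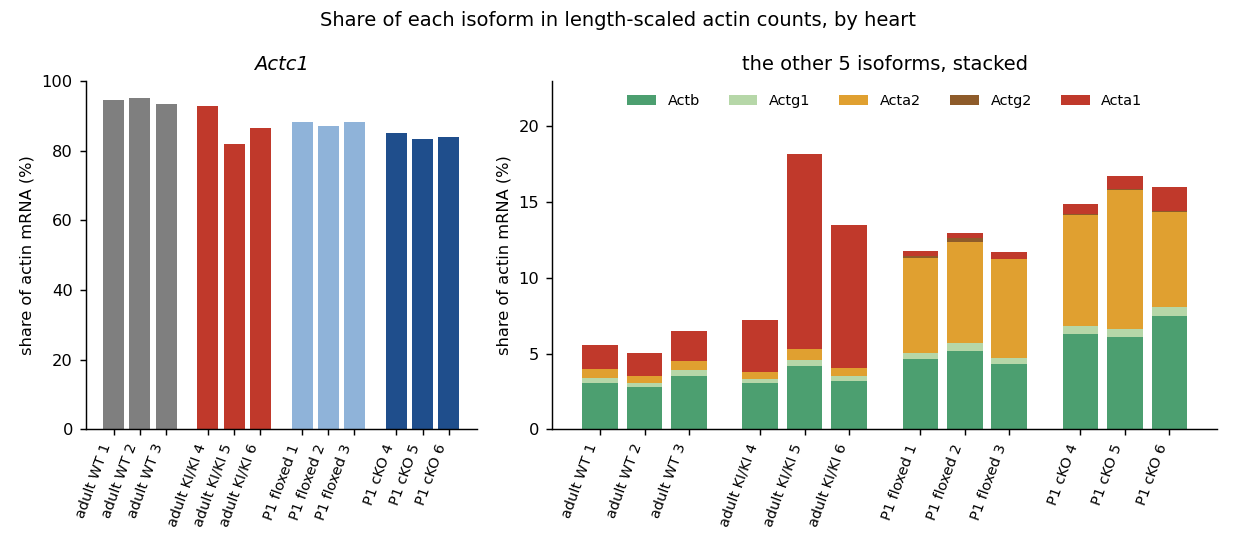
Share of each isoform in the summed actin CPM per kilobase (percent) in each of the 12 hearts, with a bar per heart for Actc1 on the left and stacked bars of the other 5 isoforms on the right. The red Acta1 segment went from a mean of 1.66% to 8.63% in adult and from 0.350% to 1.03% in P1 hearts, while Actc1 went from 94.3% to 87.0% and from 87.9% to 84.1%.

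Ratios within a heart do not depend on how libraries were scaled. Per 100 Actc1 (CPM per kilobase), Acta1 was at 1.64, 1.58 and 2.07 in WT hearts and at 3.76, 15.8 and 10.97 in KI/KI hearts, a 5.77-fold difference of the means. At P1 the same ratio was 0.366, 0.370 and 0.457 in floxed and 0.799, 1.01 and 1.86 in cKO hearts, a 3.08-fold difference. Neither pair of groups overlapped (exact permutation p = 0.1 each, two-sided).

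The ratio of the 2 cytoplasmic actins overlapped in adults. Counts of Actb per count of Actg1 averaged 10.4 ± 0.235 in WT against 10.5 ± 0.506 in KI/KI hearts (SD, n = 3 each, exact permutation p = 1). At P1 they averaged 10.1 ± 0.580 in floxed hearts, and at 12.01, 12.2 and 12.1 the cKO hearts all lay above them (exact permutation p = 0.1). The level of this ratio is uncertain, since 54.5% of the Actg1 windows are shared with other genes and the counting of such reads is not known. Actb per 100 Actc1 was 5.35 ± 0.535 in floxed and 7.88 ± 0.888 in cKO hearts (exact permutation p = 0.1, n = 3 each), and overlapped in adults. All 6 genes together took 1.21% ± 0.0295 of the counts in WT, 1.27% ± 0.0937 in KI/KI, 1.52% ± 0.194 in floxed and 1.79% ± 0.219 in cKO hearts, with overlap in both comparisons (exact permutation p = 0.4 and 0.2).

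**Figure D4:**
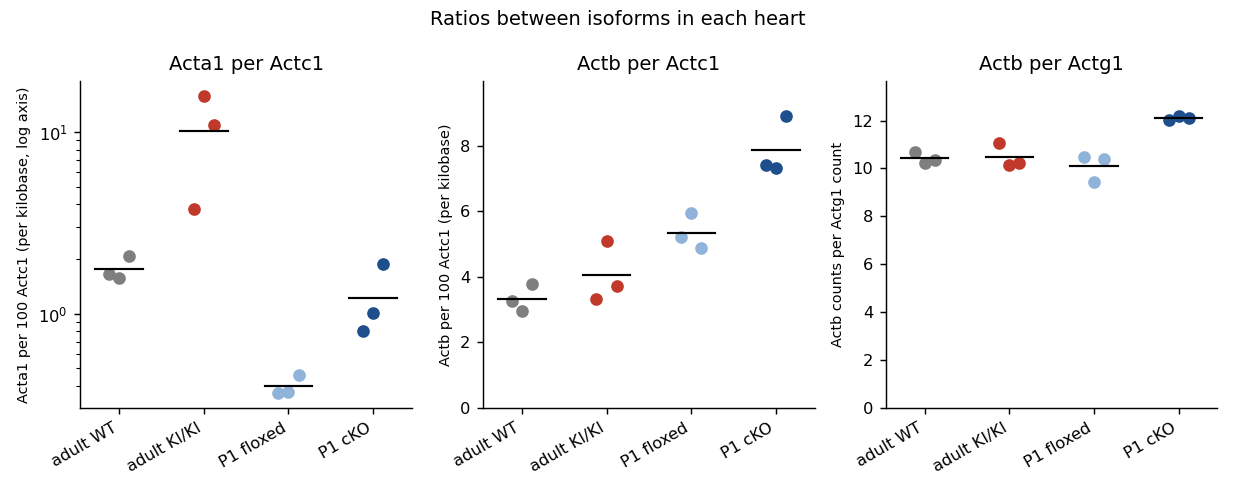
Ratios between isoforms within each heart (Acta1 per 100 Actc1 on a log axis, Actb per 100 Actc1, and counts of Actb per count of Actg1), with a point for each of the 12 hearts and a bar for the group mean. Acta1 per 100 Actc1 was higher in all 3 mutant hearts of both models, and counts of Actb per count of Actg1 were higher in all 3 cKO hearts and overlapped in adults.

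Genes that regulate actin transcription or act on actin were read from 9 lists, which share some genes. In adult hearts no gene of any list passed edgeR's test, as no gene at all did. The genes with the smallest p in each list had log2 fold changes of -0.23 for Myocd and -0.24 for Mef2a (transcription factors), 1.10 for Ankrd1 and 0.40 for Cyr61 (SRF targets), and 0.64 for Xirp2 and -0.72 for Tmod4 (thin filament). They were 0.28 for Cap1 and 0.79 for Capg (monomer binding), 0.60 for Spire1 and 0.21 for Actr3 (nucleation), -0.32 for Ezr and 0.86 for Lcp1 (cross-linkers), 0.26 for Pdcl3 and 0.56 for Mical1 (folding), and 0.21 for Actr3 and -0.12 for Actr1b (actin-related proteins). Of these genes DESeq2 called Ankrd1, Xirp2, Capg, Spire1, Lcp1 and Pdcl3 higher and Ezr lower. At P1, 17 of the 21 SRF target genes other than actins were higher and 1, Fhl2, lower, with a median log2 fold change of 1.08 against -0.0043 over all genes. Of all genes tested, 9.32% were called higher and 7.57% lower. The immediate-early factor Egr1 went from 31.0 to 109 CPM (log2 fold change 1.81), Ier2 rose by 0.78, and the matricellular genes Cyr61 and Ctgf rose by 2.95 and 3.46. Egr1, Ier2 and Ctgf also respond to many other signals. Without cKO heart 4, 13 of these genes were higher and 1 lower. Fewer of the 21 passed without floxed heart 1 (4), floxed heart 2 (8) or cKO heart 5 (9). Calls over all genes fell likewise, to 86 higher and 74 lower without floxed heart 1, 303 and 365 without floxed heart 2, and 320 and 222 without cKO heart 5.

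Among the transcription factors, more fell than rose. Of 14 tested, 6 were lower and 1 higher, against 7.57% and 9.32% of all genes, with a median of -0.39. Mef2a, a MADS-box factor of muscle, fell from 646 to 424 CPM (log2 fold change -0.61, adjusted p = 0.00634 by edgeR), and Mef2d, Mef2c and the cardiac homeobox gene Nkx2-5 fell by 0.46, 0.41 and 0.36. The other 2 that fell were Mkl2 and Gata6, and the 1 that rose was Mkl1, an actin-sensing coactivator of SRF, by 0.36 (these 3 were singled out after their values were seen). Srf had a log2 fold change of 0.36 and did not pass, with an adjusted p of 0.305 by edgeR, nor did its cardiac coactivator Myocd (-0.44, adjusted p = 0.0876). Without cKO heart 4, only 2 of the 14 passed, both lower, and without floxed heart 1, floxed heart 2 or cKO heart 5 the number was 1, 1 and 2.

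For the lists that follow, the shares over all genes at P1 were 9.32% higher and 7.57% lower. Proteins that bind actin monomers or turn filaments over had 11 of 24 genes higher and 1 (Ssh2) lower, with a median of 0.37. Tmsb10 and Tmsb4x, thymosins that sequester monomers, rose by 0.76 and 0.64 on the log2 scale, Coro1c by 0.75 and Cap1 by 0.54. Of the cross-linkers and membrane anchors, 11 of 21 were higher and 1 (Ezr) lower, with a median of 0.44. The non-muscle α-actinin Actn4 rose by 0.92, talin (Tln1) by 0.86, zyxin (Zyx) by 0.80 and moesin (Msn) by 0.59. Nucleation and elongation factors had 7 of 28 higher and 2 (Fhod3 and Jmy) lower, the latter a share near that of all genes, with a median of 0.24, and the Arp2/3 subunits Arpc5, Arpc4 and Arpc1b rose by 0.58, 0.54 and 0.50. Fhod3, the formin of the cardiac sarcomere, fell by 0.41.

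Thin filament genes were split. Of 21, 5 were higher and 4 lower, against 9.32% and 7.57% of all genes, with a median of 0.10. The actin-binding repeat protein Xirp2 went from 29.1 to 213 CPM (log2 fold change 2.87), and Lasp1, Lmod2, a leiomodin that elongates thin filaments, and Cfl2, the muscle cofilin, rose by 0.61, 0.50 and 0.37. The 4 that fell, singled out after their values were seen, were Tmod1, which caps the pointed end, by 0.35, Neb by 0.69, Nebl by 0.63 and Fhod3. Of the folding and modification genes, 5 of 19 were higher and 0 lower, among them the chaperonin subunits Cct8 and Tcp1 (0.48 and 0.31), the prefoldin subunit Pfdn1 (0.34) and Pdcl3 (0.43), with a median of 0.23. Of 10 actin-related proteins 1, Actr2, was higher, a share close to that of all genes, with a median of 0.07. DESeq2 called 10 folding, 10 nucleation and 3 actin-related genes higher and 0, 2 and 1 lower, where it called 13.2% of all genes higher and 10.7% lower. These counts fell together with the calls over all genes. Without floxed heart 1, floxed heart 2 or cKO heart 5, the number passing in either direction was 1, 5 and 5 for monomer binding, 0, 2 and 5 for cross-linkers, 0, 2 and 0 for nucleation and 1, 2 and 3 for thin filament genes, and 0 each time for folding and actin-related genes. Without cKO heart 4 the number was 9 for monomer binding, 11 for cross-linkers, 6 for nucleation, 6 for thin filament, 2 for folding and 2 for actin-related genes.

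The list of stress and fetal heart markers gave context for Acta1. At P1, 4 of its 8 genes were higher and 1 lower, against 9.32% and 7.57% of all genes, with a median of 1.37. The natriuretic peptides Nppb and Nppa rose by 4.05 and 1.95 on the log2 scale, the stress-induced repeat proteins Ankrd1 and Xirp2 by 2.76 and 2.87, and Tnni1, the fetal troponin I, fell by 0.38 (Nppa was added after its values were seen). Without floxed heart 1, floxed heart 2 or cKO heart 5, 1, 1 and 2 of the 8 passed. In adult hearts none of the 8 passed by edgeR, while DESeq2 called 3 of them, Nppb, Xirp2 and Ankrd1, at log2 fold changes of 1.86, 0.63 and 1.09 by DESeq2. Nppb went from 124 ± 30.9 to 450 ± 188 CPM in the adult groups (SD, n = 3 each).

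**Figure D5:**
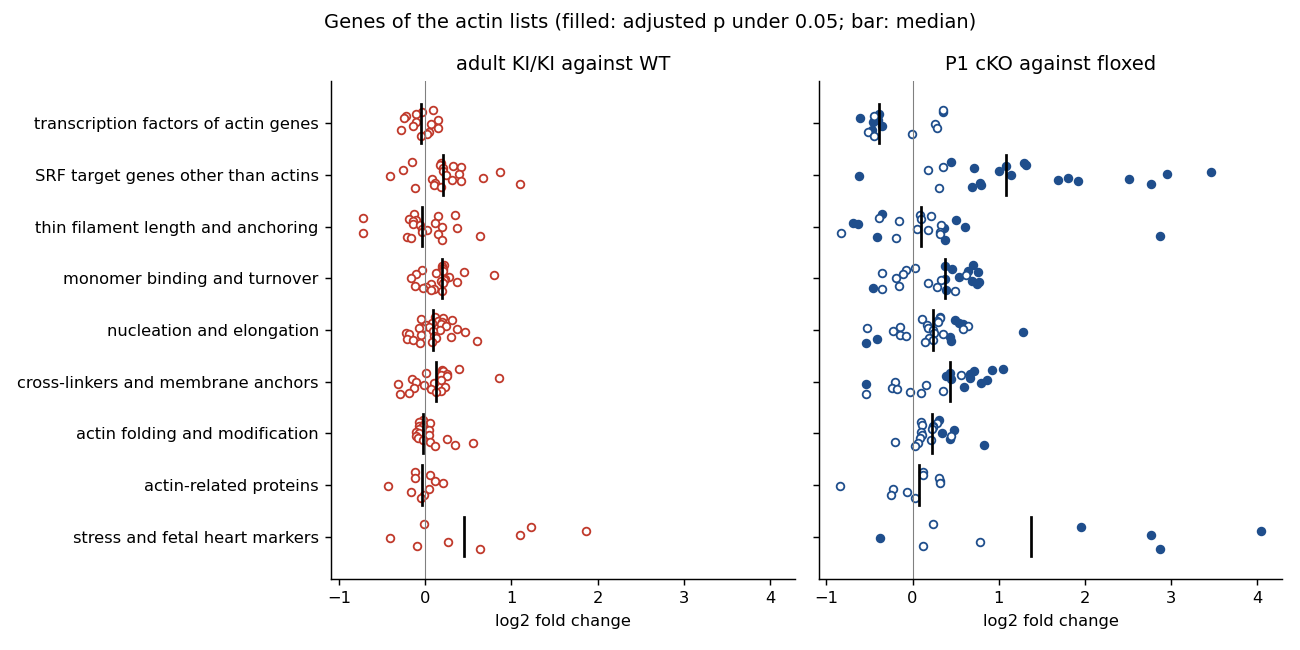
Log2 fold change of every tested gene of the 9 lists, with a point for each gene (filled at an adjusted p under 0.05) and a bar for the median of the list, in adult KI/KI against WT and P1 cKO against floxed hearts. The medians of SRF targets and stress markers at P1 are 1.08 and 1.37, and that of the transcription factors is -0.39.

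Whole hearts mix cell types, and in bulk RNA fewer cells of a type and less RNA per cell cannot be told apart. Heart muscle identity was checked on 8 cardiomyocyte markers, which summed to 72864 to 82274 CPM in WT, 54161 to 74379 in KI/KI, 33930 to 39536 in floxed and 26190 to 31107 in cKO hearts. All 8 were above 1 CPM in every heart. At P1, 3 of them (Ckm, Ryr2 and Tnni3) fell and 0 rose (2 and 0 without cKO heart 4), and in adults none passed. Of all genes tested at P1, 7.57% were called lower and 9.32% higher. Acta1 thus was higher at P1 where this sum was lower in every heart. Its part in the changes of share was not tested.

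Skeletal muscle tissue was considered because Acta1 is its main actin. The 14 skeletal fibre markers summed to 49.0 to 68.0 CPM in WT hearts and to 20.4 to 25.4 CPM in KI/KI hearts, lower where Acta1 was higher. Most of that sum was Casq1, which averaged 37.4 CPM in WT and 16.1 CPM in KI/KI hearts, and Atp2a1 averaged 10.9 and 3.30 CPM. Of 7 markers tested in adults, 0 passed by edgeR, and DESeq2 called 3 lower (Atp2a1, Casq1 and Tnni2). At P1 the 14 markers summed to 59.4 to 80.3 CPM in floxed and 126 to 301 CPM in cKO hearts. Most of that was Casq1, which went from 59.1 to 213 CPM (adjusted p = 0.0143 by edgeR). The fast myosin genes were low: Myh1 averaged 0.209 and 0.853 CPM, Myh2 0.109 and 0.138, and Myh4 0.0732 and 0.0354 in floxed and cKO hearts. No skeletal muscle of this age was measured, so these low values cannot tell whether such tissue was present. Myod1 was at 0 in every P1 heart and Myf6 in every adult heart. Myh2, Myh4, Myod1 and Myf6 were singled out after their values were seen. At P1, Casq1 and Myh1 rose and Tnni2 fell among 9 markers tested, where 9.32% of all genes were called higher and 7.57% lower. The part of skeletal muscle tissue in the level of Acta1 was not tested.

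Smooth muscle markers other than actins stood beside Acta2. The 8 markers summed to 542 to 570 CPM in WT, 503 to 532 in KI/KI, 434 to 506 in floxed and 488 to 759 CPM in cKO hearts. At P1 Cnn1 rose from 36.4 to 90.6 CPM and Tagln from 93.5 to 229.1 CPM, and Myh11, the smooth muscle myosin, fell from 67.3 to 42.8 CPM. These were the only calls among the 8, where 9.32% of all genes were called higher and 7.57% lower. Without cKO heart 4 none of the 8 passed. The sum was highest in cKO heart 5 (759 CPM), which also had the highest Acta2, and lowest of the cKO group in heart 6 (488 CPM), which had the lowest Acta2. The other groups did not follow that order. WT heart 2 had the lowest Acta2 (86.5 CPM) and the highest sum (570 CPM) of its group. KI/KI heart 5 had the highest Acta2 (137 CPM) and the lowest sum (503 CPM) of its group. In floxed hearts Acta2 was highest in heart 3 (1336 CPM) and the sum in heart 2 (506 CPM). Activated fibroblast markers, another setting in which Acta2 is known, summed to 5973 to 6747 CPM in floxed and 9478 to 10033 CPM in cKO hearts. Of these 12 markers, 8 were higher and 0 lower, against 9.32% and 7.57% of all genes. Meox1 and Tnc rose by 1.61 each and Postn by 0.79 on the log2 scale, and Cilp went from 2.06 to 13.4 CPM. In adults the 12 markers summed to 937 to 1219 CPM in WT and 1213 to 3398 CPM in KI/KI hearts, none passed by edgeR, and DESeq2 called 3. The part of these cells in the levels of Acta2, Actb and Actg1 was not tested.

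For the remaining cell types, edgeR called 3 of 6 pericyte markers (Cspg4, Notch3 and Pdgfrb), 1 of 5 fibroblast markers (Tcf21), 1 of 5 endothelial markers (Pecam1) and 2 of 4 leukocyte markers (Cd68 and Lyz2) higher at P1, and none lower. Of all genes tested at P1, 9.32% were called higher and 7.57% lower. Without cKO heart 4 edgeR called 3 pericyte, 0 fibroblast, 0 endothelial and 1 leukocyte markers higher. The pericyte list did not move as one. Abcc9, singled out after its values were seen, averaged 557 CPM in floxed and 321 CPM in cKO hearts with no overlap, and DESeq2 called it lower (adjusted p = 0.00693) where edgeR did not (0.0602). The summed pericyte level was 899 to 998 CPM in floxed and 645 to 1107 CPM in cKO hearts. Over the fibroblast list the median was -0.14 on the log2 scale, and the sums were 1660 to 1920 CPM in floxed and 1979 to 2187 CPM in cKO hearts. Endothelial sums were 976 to 1054 and 996 to 1421 CPM, and leukocyte sums 48.8 to 62.1 and 75.6 to 99.8 CPM. No tested lung, thymocyte or erythroid marker passed edgeR's test in either comparison, and DESeq2 called 1, the erythroid Slc4a1 at P1 (3.98 and 6.13 CPM, adjusted p = 0.0203). Lung markers summed to 100.1 CPM in WT heart 3, 34.8 in KI/KI heart 4 and at most 0.676 CPM in the other 4 adult hearts, and to 2.44 to 42.9 CPM at P1. In adults 0 markers of any list passed by edgeR.

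The genes whose levels followed each isoform most closely were found by Pearson's correlation of log2 CPM over the 12 hearts, centred within each age, among 13383 genes with a mean of at least 1 CPM. These hearts share the groups and the library preparation, so the values describe the pattern and were not tested. For Acta1 they were Bcl2 (0.99), Cox19 (0.97) and Padi4 (0.96). For Actc1 they included Atp1b1 (0.94) and C130080G10Rik (0.90). For Acta2 they were Cox6a1 (0.92), Setd5 (0.91) and Chsy1 (0.90), and for the scarce Actg2 Fhdc1 (0.89), B230216N24Rik (0.87) and Bad (0.86). For Actb they were Galnt16 (0.98), the small GTPase Cdc42 (0.98) and Cfl1, the non-muscle cofilin (0.97). For Actg1 they were Armcx2 (0.96), Cdc42se2 and Bok (0.95 each). Among the isoforms, Actb and Actg1 went together most closely (0.95), Acta1 and Actb less so (0.75), and Acta1 and Actc1 not at all closely (0.08). By rank correlation, 0 of the 3 genes remained for Acta1, Actc1, Actb and Actg1, 2 for Acta2 and 1 for Actg2.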

How the data were processed

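RNA-seq was performed on whole hearts of 12 mice in 4 groups of 3. According to the study's methods and the submitters' processing notes, the authors trimmed single-end reads of 75 cycles with Trim Galore, aligned them with STAR 2.7.2b to mm10, sorted them with SAMtools 1.9 and counted them per gene with HTSeq (Bowtie2 2.3.4.3 and DESeq2 are also named). The deposited values are raw whole-number counts per gene. CPM were computed from these counts with TMM factors over all 12 hearts. Each comparison was fitted on its own 6 hearts with edgeR 4.0.16 (R 4.3.3; filterByExpr, TMM, robust quasi-likelihood test), adjusted over all genes tested, at an adjusted p of 0.05. The mice are separate animals, and the edgeR and DESeq2 p-values set the difference between groups against the spread between mice. DESeq2 1.42.0, other scalings, other filters, a covariate of Y-linked gene level, all 12 hearts in one fit and leaving out each heart were tried as alternatives. An older form of edgeR's dispersion estimate, and the repeats of the list counts without single hearts or with DESeq2, were added after seeing the data. The edgeR step was tested on simulated data. The members, the 9 pathway lists and the 11 marker lists were chosen with earlier results of these data known. From each pathway list the text names, in each comparison, up to 4 genes past the test with the smallest p, or the 2 with the smallest p where none passed, from each marker list genes that passed (the design also named those at the highest level, which are given here within the sums), and from the correlations the 3 highest, of which 1 is not reported here. Fhl2, Ssh2, Jmy, Srf, Nppa, Myh2, Myh4, Myod1, Myf6, Slc4a1 and, at P1, Myocd and Ezr were named outside this rule, after their values were seen. So were Mkl1, Mkl2, Gata6, Tmod1, Neb, Nebl and Abcc9 and, in adults, Casq1, Atp2a1 and Tnni2. Sequences came from RefSeq and transcript lengths from GENCODE. Protein sequences were not used here beyond lengths and identities computed from those transcripts.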

Additional observations from a re-analysis of the deposited data

How the results depend on the processing

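Depth limited Actg2 most, since its adult values rest on few reads, and the multiple-match counting limits Actg1. In adult hearts the log2 fold change of Acta1 was past the threshold under DESeq2 (2.39, adjusted p = 0.000148) and with all 12 hearts in one edgeR fit (2.39, 0.0459), with 1 isoform past the test in each, and it ran from 2.00 to 2.79 when single hearts were left out, with 0 to 1 isoforms past the test. The cause was not tested. Acta2 turned to 0.052 with the Y-linked covariate and ran from -0.34 to 0.13 without single hearts, Actg2 from -0.59 to 0.36 and Actg1 from -0.022 to 0.31. By Xist and Ddx3y all adult hearts read as male, so in adults that covariate held only their spread in Y-linked level and no difference in sex.

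At P1, leaving out single hearts moved Acta1 from 1.49 to 2.03, Acta2 from 0.26 to 0.73, Actg2 from -0.39 to 0.52, Actb from 0.66 to 0.83 and Actg1 from 0.36 to 0.61, with 0 to 4 isoforms past the test, and 0 without floxed heart 1. Actg1 did not pass with the Y-linked covariate (0.52, adjusted p = 0.0761 by edgeR) or upper-quartile factors (0.46, 0.0504). Requiring more than 2-fold left 1 isoform. For the difference between the models, Actb was 0.65 under DESeq2 (adjusted p = 0.0192) and 0.51 to 0.78 without single hearts, and Actg2 ran from -0.44 to 0.65. Among marker genes of low level, adult Ager ran from -0.18 to 0.0028, adult Slc4a1 from -0.63 to 0.498 and P1 Sftpb from -2.81 to 0.36 without single hearts.

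Hearts carry the same numbers only across ages and come from separate mice, so a replicate block was possible only in the test between the models. Correlations of same-numbered hearts were -0.157, -0.245, -0.431, 0.0904, 0.182 and 0.0650, so that the numbers do not pair them. With the block Acta1 was -0.42 (adjusted p = 0.589), Actb 0.65 (0.163), and no gene at all was called, against 184 and 199 in the 2 directions without it.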
